A study of Homo sapiens with 4 samples.

Results

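YAP and TAZ, the TEAD factors they bind and genes of the Hippo pathway were followed as 10 genes picked by name (YAP1, WWTR1, TEAD1, CTGF, CYR61, ANKRD1, AMOTL1, AMOTL2, LATS2 and AJUBA) among the 39306 genes of the tables, and all 10 had a row. CTGF and CYR61 are the older symbols of CCN2 and CCN1. The cells are MHCC97H, an established human hepatocellular carcinoma line. The knockdown group consists of 2 libraries of MHCC97H cells with HNRNPM, a splicing regulator of the hnRNP family, silenced by a short hairpin RNA. The wild-type group consists of 2 libraries of MHCC97H cells labelled HNRNPM wild type. No control hairpin is named for the wild-type cells, so the delivery of a hairpin and the loss of HNRNPM cannot be told apart. The labels give neither the origin of the replicates (1 culture or several) nor the hairpin that each knockdown library carries. The p-values therefore set the difference between the groups against the scatter of libraries within a group, and that scatter may be technical.

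In the Hippo pathway the kinases STK3 and STK4 activate the kinases LATS1 and LATS2, which phosphorylate the coactivators YAP (gene YAP1) and TAZ (gene WWTR1) and keep them out of the nucleus. When the pathway is off, YAP and TAZ enter the nucleus, bind TEAD factors and switch on genes such as CTGF, CYR61 and ANKRD1, and also AMOTL2 and LATS2, whose products restrain YAP. In the liver the pathway limits organ size, and raised YAP activity is known from hepatocellular carcinoma. Control of YAP and TAZ acts largely on the proteins, which were not measured here. All values are RNA levels.

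The read depth was 12708165 and 11498663 assigned reads in the knockdown libraries and 18317579 and 19659106 assigned reads in the wild-type libraries. HNRNPM, the silenced gene, stood at 21.8 and 20.4 RPKM (assigned reads scaled to exon length and to library size) in knockdown cells, against 51.3 and 51.6 RPKM in wild-type cells. HNRNPM fell by 1.35 on the log2 scale (SE 0.07; limma adjusted p = 0.00270). Among hepatocyte markers, KRT18 was called higher and ALB and APOB were called lower. The keratins KRT8 and KRT18 and the factor HNF4A were present, with KRT8 at 638 and 672 RPKM in knockdown cells and 538 and 506 RPKM in wild-type cells. The classical liver products AFP and TTR stayed below 0.5 RPKM in every library. Albumin (ALB) was at 1.75 and 1.78 RPKM in knockdown cells and 5.35 and 6.28 RPKM in wild-type cells.

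Of the 10 genes, 2 were higher in knockdown cells (CTGF and CYR61) and 0 were lower, 7 did not pass the test, and ANKRD1 had too few reads to be tested (limma, adjusted p under 0.05 over 20221 tested genes). In the same comparison 11.1% of all tested genes were called higher and 13.8% lower. At an unadjusted p under 0.05, 4 of the 10 genes were higher and 0 lower, beside 18.5% and 22.3% of all tested genes. Limma-voom on recovered reads, with adjustment, also called 4 higher and 0 lower, beside 16.2% and 19.6% of all tested genes. The median log2 fold change was 0.28 over the 9 tested genes and -0.03 over all tested genes, and 8 of the 9 estimates were above 0, against 46.9% of all estimates. In 7 of the 9 both knockdown libraries lay above both wild-type libraries after scaling, as they did in 31.0% of all tested genes. With values scaled only to total reads, 55.5% of all calls were higher in place of 44.5%, and 4 of the 10 genes were called higher, as were 13.8% of all tested genes. A stricter filter of 30 reads also left 4 called higher, beside 16.1% of the 16070 genes then tested.

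**Figure D1:**
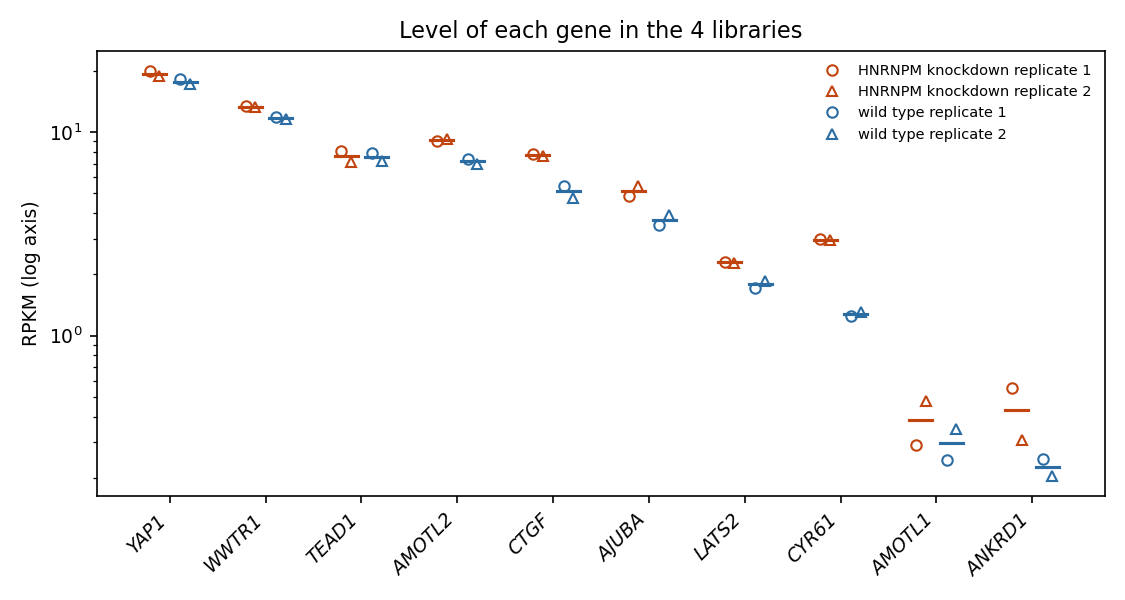
RPKM of the 10 genes in each library on a log axis, with HNRNPM knockdown (orange-red) left of wild type (blue), circles for replicate 1, triangles for replicate 2 and bars for group means. CYR61 and CTGF show the clearest separation, YAP1 and TEAD1 lie close together in the groups, and AMOTL1 and ANKRD1 lie below 0.6 RPKM.

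Transcripts of the coactivators were abundant in both groups and neither passed the test. YAP1 (GRCh38 chromosome 11, positions 102110461 to 102233423, plus strand) was measured at 19.9 and 18.8 RPKM in knockdown cells and at 18.2 and 17.2 RPKM in wild-type cells. Both knockdown values lay above both wild-type values, by less than the distance between replicates. For YAP1 the estimate on the log2 scale was 0.07 ± 0.07 (SE; limma adjusted p = 0.517), with a 95% confidence interval of the fold from 0.927 to 1.19. In wild-type cells its mean level exceeded that of 86.9% of tested genes. WWTR1, which encodes TAZ (chromosome 3, positions 149517235 to 149736714, minus strand), was at 13.4 and 13.2 RPKM in knockdown cells and at 11.8 and 11.5 RPKM in wild-type cells. These groups did not overlap, but the log2 fold change of 0.12 ± 0.07 did not pass (SE; limma adjusted p = 0.25), with a fold between 0.964 and 1.23 at 95% confidence. WWTR1 transcripts stood at 0.672 and 0.704 of the YAP1 level in the knockdown libraries and at 0.652 and 0.673 of it in the wild-type libraries, both per kilobase of exon. The mean log2 ratio of WWTR1 to YAP1 was -0.54 in knockdown and -0.59 in wild-type cells, a difference of 0.05 (exact permutation test, two-sided, p = 0.667, n = 2 each). With 2 libraries a group the exact permutation test cannot go below p = 0.333.

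YAP1 and WWTR1 both share exon sequence with a gene on the opposite strand. For YAP1 this is RP11-864G5.3, over 628 bp, with 200 to 301 reads a library, against 1360 to 2123 reads for YAP1. For WWTR1 it is WWTR1-AS1, over 795 bp, with 198 to 379 reads against 1279 to 1909 for WWTR1. No source at hand says whether counting used strand, and reads of a gene and its antisense partner in these stretches cannot be told apart.

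TEAD1, a DNA-binding partner of YAP and TAZ (chromosome 11, positions 12674591 to 12944483, plus strand), was measured at 8.05 and 7.15 RPKM in knockdown cells and at 7.87 and 7.23 RPKM in wild-type cells. The groups overlapped fully. The estimate of -0.06 ± 0.10 on the log2 scale did not pass (SE; limma adjusted p = 0.708), with an interval of the fold from 0.814 to 1.14. The sign of this estimate turned to 0.01 with values scaled only to total reads. TEAD1 was not the most abundant TEAD gene. TEAD2 was at 10.4 and 9.98 RPKM in knockdown cells and at 12.1 and 11.98 RPKM in wild-type cells, and it fell by 0.30 on the log2 scale (SE 0.07; limma adjusted p = 0.0375). TEAD2 shares 319 bp of exon with CD37, and its call was lost without each of the libraries in turn, with no filter and with scaling to total reads. TEAD3 and TEAD4 did not pass, at -0.12 ± 0.13 and -0.29 ± 0.13 on the log2 scale (SE; limma adjusted p = 0.525 and 0.155). TEAD1 made up 30.2% and 28.9% of the summed TEAD1 to TEAD4 RPKM in the knockdown libraries and 26.6% and 26.7% in the wild-type libraries. The groups did not overlap in this share, and the difference of 2.84 percentage points reached the smallest p that the exact permutation test allows (p = 0.333, two-sided, n = 2 each). The summed TEAD level was 26.7 and 24.8 RPKM in knockdown cells and 29.5 and 27.1 RPKM in wild-type cells.

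CTGF and CYR61 encode secreted matricellular proteins of the CCN family and are the most widely used readouts of YAP and TAZ activity, although serum response factor and AP-1 are known to drive them too. TEAD factors recognise the motif GGAATG, which was searched on both strands in RefSeq promoter windows of GRCh38.p14, from 250 bases before to 50 after each annotated start. It occurs in 14.0% of all 35116 windows, and 45 windows (0.128%) hold 3 or more copies. For 8 of the 10 genes a window was at hand, 11 windows in all, and those of CYR61 and TEAD1 were not used here. The motif was found for YAP1, CTGF, ANKRD1, AMOTL2, LATS2 and AJUBA. No AP-1 motif (TGACTCA or TGAGTCA) and no CArG box, the site of serum response factor, matched in these 11 windows. Of all windows 4.95% and 1.29% held them. With shares this low, 11 windows would often hold none, and none of the 11 belongs to CYR61. A match is a run of letters and was not tested for binding.

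The stretches that hold the motif are shown because they put the TEAD motif of the called gene CTGF beside those of the other genes with a match. Each stretch has 20 bases on either side of its motifs. Capitals mark GGAATG, or CATTCC where the motif lies on the other strand, and each line reads 5′ to 3′ along the gene's strand.
CTGF (chr6:131951442-131951561, minus strand): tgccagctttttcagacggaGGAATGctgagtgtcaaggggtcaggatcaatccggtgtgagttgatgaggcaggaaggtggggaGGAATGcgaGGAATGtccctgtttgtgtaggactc
ANKRD1 (chr10:90921190-90921327, minus strand): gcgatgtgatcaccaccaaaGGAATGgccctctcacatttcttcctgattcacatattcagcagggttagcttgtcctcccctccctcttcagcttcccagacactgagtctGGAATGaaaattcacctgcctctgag
AMOTL2 (chr3:134374491-134374536, minus strand): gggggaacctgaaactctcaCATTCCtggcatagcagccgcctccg
LATS2 (chr13:21061552-21061597, minus strand): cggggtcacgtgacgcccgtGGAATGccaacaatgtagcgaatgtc
AJUBA (chr14:22976876-22976921, minus strand): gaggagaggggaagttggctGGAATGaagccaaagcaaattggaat
YAP1 (chr11:102110265-102110310, plus strand): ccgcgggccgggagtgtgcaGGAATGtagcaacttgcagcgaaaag

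CTGF holds 3 copies, ANKRD1 holds 2 and the others 1 each. The copies of CTGF begin at positions -169, -104 and -95 relative to its start, and the last pair is separated by only 3 bases. In ANKRD1 they begin at -220 and -128. The copy of AMOTL2 lies in the window of the second of 2 annotated starts, on the other strand, and that of AJUBA also in its second window, at position -59. In LATS2 the copy begins at position 10, after the start, and in YAP1 at -162.

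**Figure D2:**
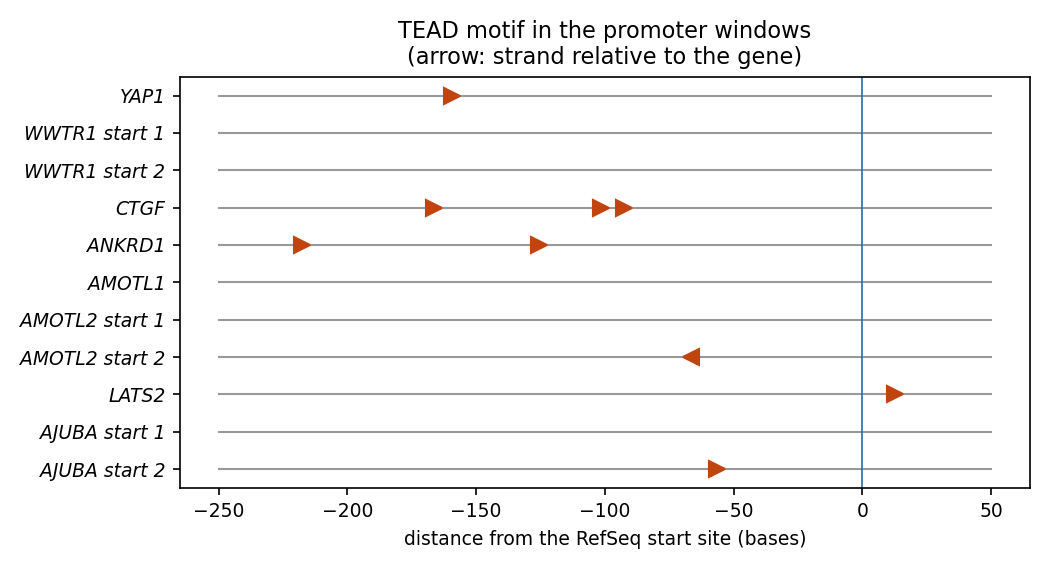
Position of GGAATG in the 11 promoter windows, as distance in bases from the RefSeq start (blue line), with arrows for the strand relative to the gene. CTGF has 3 copies, all on its own strand, and the windows of WWTR1 and AMOTL1 show none.

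CYR61 rose the most of the 9 tested genes. CYR61 (chromosome 1, positions 85580761 to 85583962, plus strand) was measured at 2.98 and 2.94 RPKM in knockdown cells and at 1.25 and 1.31 RPKM in wild-type cells. Both knockdown libraries were above both wild-type libraries by far more than the replicates differed. CYR61 rose by 1.09 ± 0.13 on the log2 scale (SE; limma adjusted p = 0.00630), or 2.13-fold with a 95% interval from 1.71 to 2.67. These levels rest on 93 and 83 reads in the knockdown libraries and on 56 and 63 reads in the wild-type libraries. No other gene's exons overlap CYR61. The call held without each library in turn (limma adjusted p from 0.0169 to 0.0390).

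CTGF (chromosome 6, positions 131948176 to 131951373, minus strand) was at 7.77 and 7.62 RPKM in knockdown cells and at 5.46 and 4.76 RPKM in wild-type cells. The groups did not overlap. CTGF rose by 0.52 ± 0.10 on the log2 scale (SE; limma adjusted p = 0.0194), or 1.44-fold with an interval from 1.21 to 1.70. The call did not hold without knockdown replicate 1 or 2 (limma adjusted p = 0.1002 and 0.107) or with no filter on low values (0.0639), while the estimate stayed between 0.43 and 0.61 whichever library was left out. CTGF shares 195 bp, 8.34% of its exons, with RP11-69I8.3 on the opposite strand, which had only 15 to 19 reads a library.

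CYR61 stood at 0.384 and 0.386 of the CTGF level in the knockdown libraries, against 0.228 and 0.274 in the wild-type libraries. The groups did not overlap, and the difference of 0.62 in the mean log2 ratio reached the smallest p of the exact permutation test (p = 0.333, two-sided, n = 2 each). Another CCN gene was also called higher. WISP1 (CCN4) was at 11.1 and 10.7 RPKM in knockdown cells and at 7.58 and 7.66 RPKM in wild-type cells, and it rose by 0.45 ± 0.08 on the log2 scale (SE; limma adjusted p = 0.0146). WISP1 lost this call without knockdown replicate 1 or 2, and it shares 642 bp of exon with WISP1-OT1. NOV (CCN3), WISP2 and WISP3 had 1 to 8 reads a library and were not tested.

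Markers of fibroblasts and stellate cells, which also express CTGF and CYR61 in liver, moved in the same direction at low levels. Of the 6 listed markers (COL1A1, COL1A2, COL3A1, DCN, LUM and PDGFRB) 3 were called higher (COL1A1, LUM and PDGFRB), of which only LUM kept its call without each library in turn. Called higher were 50% of the 6, beside 11.1% of all tested genes. The summed level of the 6 markers was 3.72 and 3.58 RPKM in knockdown cells and 1.27 and 1.47 RPKM in wild-type cells. LUM made up most of it, at 2.98 and 2.69 RPKM in knockdown cells and 1.07 and 1.18 RPKM in wild-type cells. COL1A1 and COL1A2 stayed below 0.17 RPKM in every library, and none of the 6 was at 0 in any of them. Their part in the change of CTGF and CYR61 was not tested. The samples are of the line MHCC97H, and no label names other cells in them. In bulk RNA, a change in the number of cells that express a gene and a change in RNA per cell cannot be told apart. Of 4 endothelial markers 3 were tested, and VWF had too few reads. PECAM1 and CDH5 were called lower, as were 13.8% of all tested genes. KDR had an estimate of 0.23 ± 0.21 on the log2 scale and did not pass (SE; limma adjusted p = 0.473). The summed level of the 4 was 6.78 and 7.19 RPKM in knockdown and 9.55 and 10.2 RPKM in wild-type cells. PECAM1 made up most of it, at 5.83 and 5.97 RPKM in knockdown and 8.55 and 9.01 RPKM in wild-type cells. The leukocyte gene PTPRC was at 0 in knockdown replicate 2 and in both wild-type libraries, with 4 reads in knockdown replicate 1. CD68, a lysosomal protein of macrophages, was at 61.6 and 60.1 RPKM in knockdown and 46.4 and 57.7 RPKM in wild-type cells and did not pass. AC113189.5 and RP11-186B7.4 overlap 1939 of the 2189 exon bases of CD68, so its value may hold reads of other genes.

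The remaining target, ANKRD1, a nuclear ankyrin repeat protein best known from heart muscle, was barely expressed. ANKRD1 (chromosome 10, positions 90912096 to 90921276, minus strand) was at 0.557 and 0.308 RPKM in knockdown cells and at 0.248 and 0.206 RPKM in wild-type cells. Behind these values stand 14 and 7 reads in knockdown and 9 and 8 reads in wild-type libraries. The knockdown values were higher in both libraries, but the counting intervals overlap widely, from 0.124 to 0.634 RPKM for knockdown replicate 2 and from 0.114 to 0.471 RPKM for wild-type replicate 1 (exact Poisson, 95%, counting error only). ANKRD1 failed the filter on low values. Without that filter its log2 fold change was 0.62 ± 0.39 and did not pass (SE; limma adjusted p = 0.469), so a change was not detectable at this depth.

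AMOTL2, AMOTL1, LATS2 and AJUBA feed back on the pathway, and none passed the test. AMOTL2, an angiomotin that holds YAP at cell junctions (chromosome 3, positions 134355874 to 134375479, minus strand), was at 9.07 and 9.21 RPKM in knockdown cells and at 7.38 and 7.004 RPKM in wild-type cells. The groups were well apart, and the estimate was 0.28 ± 0.08 on the log2 scale (SE; limma adjusted p = 0.0560), with an interval of the fold from 1.06 to 1.39. Limma-voom, a stricter filter and scaling to total reads each gave AMOTL2 a call (adjusted p = 0.0115, 0.0390 and 0.0350). RPL39P5, a ribosomal protein pseudogene, lies over 187 bp of its exons with 7 to 24 reads a library. AMOTL1, a second angiomotin (chromosome 11, positions 94706431 to 94876753, plus strand), was at 0.290 and 0.477 RPKM in knockdown cells and at 0.245 and 0.350 RPKM in wild-type cells. RP11-856F16.2 overlaps 496 bp of its exons with 0 to 4 reads a library. The groups overlapped, and the estimate of 0.22 ± 0.28 on the log2 scale did not pass (SE; limma adjusted p = 0.596) and turned to -0.08 without knockdown replicate 2. AMOTL2 was 31.3 and 19.3 times as abundant as AMOTL1 in the knockdown libraries and 30.1 and 20.03 times in the wild-type libraries, and the mean log2 ratio was 4.62 in each group (exact permutation test, two-sided, p = 1, n = 2 each). The third angiomotin gene, AMOT, had 0 reads in both knockdown libraries and 1 and 2 reads in the wild-type libraries.

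LATS2, a kinase that inhibits YAP and TAZ and is also their target (chromosome 13, positions 20973032 to 21061547, minus strand), was at 2.30 and 2.28 RPKM in knockdown cells and at 1.71 and 1.86 RPKM in wild-type cells. The groups did not overlap. With a log2 fold change of 0.28 ± 0.13 LATS2 did not pass (SE; limma adjusted p = 0.170), with a fold between 0.968 and 1.52 at 95% confidence. Its partner kinase LATS1 pointed the other way, at 2.47 and 2.47 RPKM in knockdown and 2.91 and 2.52 RPKM in wild-type cells, also without passing (log2 fold change -0.19 ± 0.13 SE; limma adjusted p = 0.310). LATS1 shares 408 bp of exon with AL358852.1.

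AJUBA, a LIM domain protein that binds LATS kinases and dampens them (chromosome 14, positions 22971174 to 22982642, minus strand), was at 4.86 and 5.45 RPKM in knockdown cells and at 3.51 and 3.90 RPKM in wild-type cells. The groups did not overlap, and the gap between them was larger than either pair's spread. Its log2 fold change of 0.40 ± 0.12 narrowly missed the threshold (SE; limma adjusted p = 0.0615), with an interval of the fold from 1.07 to 1.63. AJUBA was called by limma-voom, with a stricter filter and with scaling to total reads (adjusted p = 0.00450, 0.0326 and 0.0397). RP11-298I3.5 overlaps 50 bp of its exons. The related genes LIMD1 and WTIP gave log2 fold changes of 0.06 ± 0.09 and 0.01 ± 0.19 and did not pass (SE; limma adjusted p = 0.642 and 0.981). LIMD1 shares 1029 bp of exon with LIMD1-AS1. Of the 12 listed paralogs 7 were tested, with 1 higher (WISP1), 1 lower (TEAD2) and 5 that did not pass, and a median log2 fold change of -0.12. ANKRD2, the paralog of ANKRD1, was among the 5 with too few reads.

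**Figure D3:**
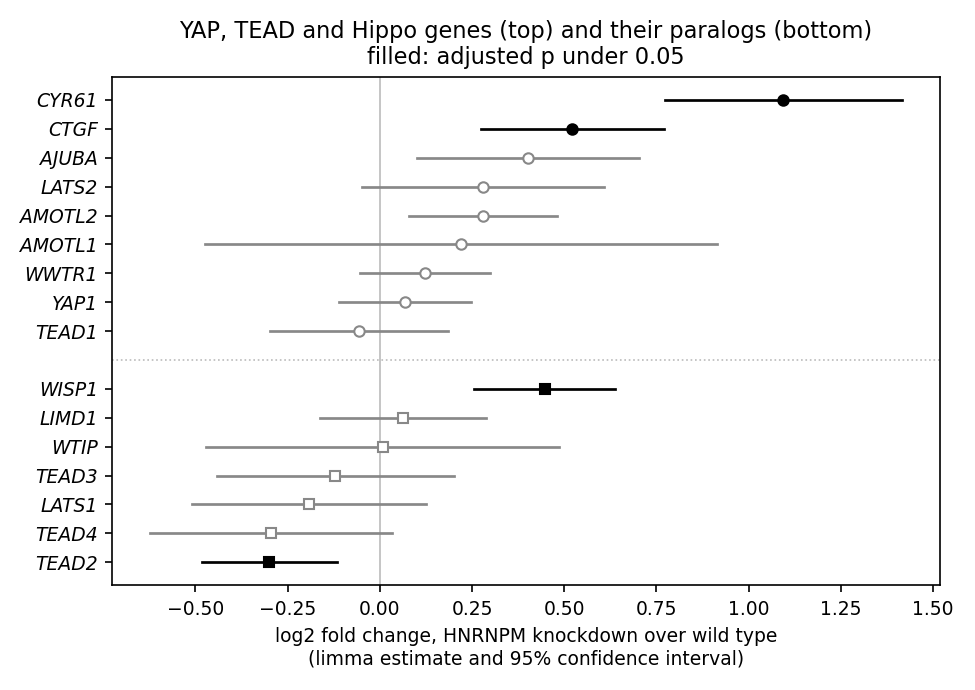
Log2 fold change of knockdown over wild type with its 95% confidence interval from limma, for the 9 tested genes (circles) and their 7 tested paralogs (squares), filled where the adjusted p is under 0.05. CYR61, CTGF and WISP1 are called higher and TEAD2 lower, and AMOTL1 has the widest interval.

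The order of levels per kilobase began with YAP1 and WWTR1 in both groups. In knockdown cells AMOTL2, CTGF, TEAD1, AJUBA, CYR61, LATS2, ANKRD1 and AMOTL1 followed, with overlapping libraries for CTGF and TEAD1 and for ANKRD1 and AMOTL1. In wild-type cells the order after WWTR1 was TEAD1, AMOTL2, CTGF, AJUBA, LATS2, CYR61, AMOTL1 and ANKRD1, with overlap between TEAD1 and AMOTL2 and between AMOTL1 and ANKRD1. CYR61 thus ranked above LATS2 in knockdown cells and below it in wild-type cells, with the libraries apart in both groups.

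The genes whose levels ran most like those of YAP1, CTGF and CYR61 over the 4 libraries were ranked among 13162 genes with a mean of at least 1 RPKM, by the root mean square distance of centred log2 values. For YAP1 they were HNRNPA1P48, DCAF12 and YWHAB, at distances of 0.0038 to 0.0065. For CTGF they were GAPDH, BET1L and TPI1P1 (0.010 to 0.013), and for CYR61 AKAP12, PNRC1 and CREB3L1 (0.012 to 0.028). AKAP12, the closest to CYR61, was at 119.8 and 117 RPKM in knockdown cells and at 51.7 and 54.9 RPKM in wild-type cells. HNRNPA1P48 and TPI1P1 are pseudogenes that can share reads with their parent genes.

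Most of the other regulators of the pathway did not pass the test, and neither did most of all tested genes. Of 34 listed Hippo regulators 31 were tested, of which 1 was higher and 4 were lower, while 26 did not pass. Shares of 3.23% higher and 12.9% lower stand beside 11.1% and 13.8% over all tested genes, and the median log2 fold change was 0.10. The balance of the calls depended on the setting, with 5 higher and 3 lower with total-read scaling and 4 and 4 with median-of-ratios scaling. It was 4 and 4 with the stricter filter, and 7 and 5 by limma-voom. Over all tested genes, calls were 2783 higher and 2234 lower with total-read scaling and 2405 and 2557 with median-of-ratios scaling. They were 2590 and 3346 with the stricter filter, and 3278 and 3956 by limma-voom. FAT1, a giant atypical cadherin, was at 70.1 and 74.7 RPKM in knockdown cells and at 137 and 149 RPKM in wild-type cells. It fell by 1.05 on the log2 scale (SE 0.08; limma adjusted p = 0.00373), and the call held without each library in turn. CRB3, PATJ (INADL) and SCRIB, which act in epithelial polarity, fell by 0.56, 0.41 and 0.33 (SE 0.12, 0.11 and 0.07; limma adjusted p = 0.0253, 0.0440 and 0.0291). CSNK1E, a casein kinase that can act in the degradation of YAP, was the gene that rose, by 0.45 ± 0.09 (SE; limma adjusted p = 0.0205). CRB3 and CSNK1E overlap exons of other genes, DENND1C and RP3-449O17.1. The core kinases STK3 and STK4 had log2 fold changes of 0.31 ± 0.11 and 0.18 ± 0.09, and the scaffold SAV1 0.49 ± 0.14, none of which passed (SE; limma adjusted p = 0.1003, 0.211 and 0.0552). These 3 core genes were named after their values had been seen. Fewer regulators were called without each library in turn, and fewer of all tested genes were called too. The listed polarity genes MPP5, PARD3, LLGL1 and DLG1, named after their values had been seen, did not pass, with log2 fold changes of 0.30, 0.01, -0.04 and -0.19.

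Further genes of a published YAP and TAZ target signature went in both directions. All 17 were tested, 2 were higher and 4 were lower, 11 did not pass, and the median log2 fold change was 0.12. Shares of 11.8% higher and 23.5% lower stand beside 11.1% and 13.8% over all tested genes. The balance of these calls also moved, to 4 higher and 3 lower with total-read scaling and with median-of-ratios scaling. By limma-voom it was 5 higher and 4 lower. Over all tested genes, calls were 2783 higher and 2234 lower with total-read scaling and 2405 and 2557 with median-of-ratios scaling. Limma-voom called 3278 higher and 3956 lower over all tested genes. IGFBP3, a secreted binder of insulin-like growth factors, was at 225 and 226 RPKM in knockdown cells and at 113 and 148 RPKM in wild-type cells, and it rose by 0.74 ± 0.14 on the log2 scale (SE; limma adjusted p = 0.0183). MYOF (myoferlin), a membrane repair protein, rose by 0.33 ± 0.06 (limma adjusted p = 0.0201). FJX1, related to the fly kinase four-jointed, which acts on Fat cadherins, was at 0.385 and 0.248 RPKM in knockdown cells and at 0.980 and 1.16 RPKM in wild-type cells. It fell by 1.56 on the log2 scale (SE 0.23; limma adjusted p = 0.009996), with 12 and 7 reads in knockdown libraries against 44 and 56 reads in wild-type libraries. TGFB2, a transforming growth factor, fell by 0.76 (SE 0.07; limma adjusted p = 0.00452), CRIM1 by 0.51 (SE 0.09; limma adjusted p = 0.0163) and NT5E, the ectonucleotidase CD73, by 0.28 (SE 0.07; limma adjusted p = 0.0472). TGFB2 and CRIM1 overlap exons of TGFB2-OT1 and RP11-78I14.1. The receptor AXL, often used as a YAP readout, was at 21.9 and 20.8 RPKM in knockdown and 15.8 and 17.5 RPKM in wild-type cells and did not pass (limma adjusted p = 0.0537). It was named after its values had been seen. IGFBP3 and MYOF lost their calls without knockdown replicate 1 and without knockdown replicate 2. Fewer of these targets, and fewer of all tested genes, were called in those fits.

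Serum response factor, which responds to the actin cytoskeleton through its MRTF partners, shares targets with YAP. Of 18 listed SRF and actin genes 16 were tested, with 5 higher and 1 lower, or 31.2% and 6.25%. Over all tested genes the shares were 11.1% and 13.8%. The median log2 fold change was 0.14, against -0.03 over all tested genes. TPM1 (tropomyosin) was at 14.7 and 14.8 RPKM in knockdown cells and at 9.06 and 9.21 RPKM in wild-type cells, and it rose by 0.62 ± 0.07 (SE; limma adjusted p = 0.00621). CNN2 (calponin), FHL2, a LIM domain protein, and CALD1 (caldesmon) rose by 0.48 ± 0.07, 0.56 ± 0.10 and 0.37 ± 0.07 (SE; limma adjusted p = 0.00828, 0.0164 and 0.0233). MYL9, a myosin light chain, was at 2.18 and 1.70 RPKM in knockdown and 0.368 and 0.866 RPKM in wild-type cells, with a log2 fold change of 1.53 ± 0.37 (SE; limma adjusted p = 0.0352). VCL (vinculin), of focal adhesions, fell by 0.44 (SE 0.09; limma adjusted p = 0.0213). SRF itself was at 9.36 and 9.42 RPKM in knockdown and 8.91 and 8.53 RPKM in wild-type cells and did not pass (limma adjusted p = 0.718). MYL9 and SRF were named after their values had been seen. TPM1, CNN2, FHL2 and VCL overlap exons of other genes. Fewer SRF and actin genes were called without knockdown replicate 1 or 2, and fewer of all tested genes were called too.

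**Figure D4:**
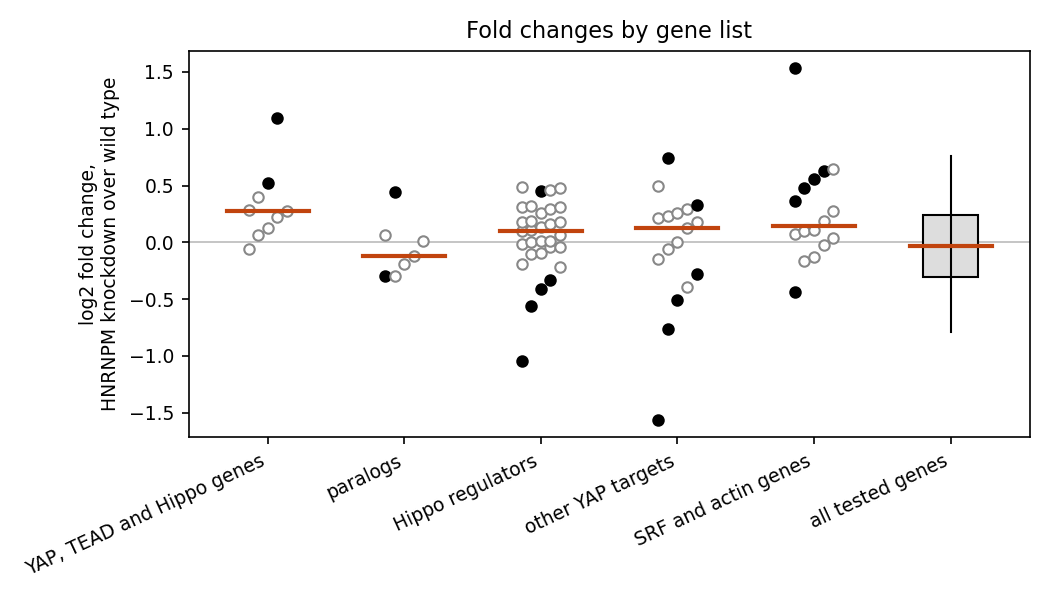
Log2 fold change of knockdown over wild type for the tested genes of each list (filled points: limma adjusted p under 0.05), with the median as an orange-red bar. The box on the right spans the quartiles of all 20221 tested genes, from -0.31 to 0.24, with a line from the 5th to the 95th percentile, -0.79 to 0.76.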

How the data were processed

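RNA-seq of 4 MHCC97H libraries was analysed from the gene tables. The deposited values are RPKM, computed by the authors per gene and library. The submitters' processing notes list, without roles, StringTie 1.3.2, edgeR 3.12.1, Subread 1.5.1, featureCounts and Trimmomatic 0.36. The notes name mm9, while the positions of all 10 genes equalled those of human GENCODE 29 (GRCh38). The aligner, the handling of molecular identifiers and the strand setting are stated in none of the sources used here. RPKM and exon length gave whole reads for 100% of values (within 0.01 of a read), from which depths and read numbers were recovered.

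Values were divided by TMM factors (0.972 to 1.03). Limma 3.58.1 (R 4.3.3) was then run across all genes on log2(RPKM + 0.1), with trended moderation, group as only term and Benjamini-Hochberg adjustment. The added 0.1 shrinks fold changes of low genes. A gene was tested where 2 or more libraries held what amounts to 10 reads at median depth, which left 20221 genes. There were 2 residual degrees of freedom, and moderation added 3.56. Intervals on reads cover counting error only.

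Genes and lists were chosen with earlier results of these data known. Named are HNRNPM, the 10 genes, their tested paralogs, up to 4 called genes per list and direction, and the 3 closest patterns. Of the listed symbols, VGLL1 and CD3E were not analysed here. Some marker genes are not reported here. The closing section gives the alternatives.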

Additional observations from a re-analysis of the deposited data

How the results depend on the processing

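The direction of HNRNPM, CYR61, CTGF, AMOTL2, LATS2, AJUBA, WWTR1 and YAP1 was kept under every alternative run, and CYR61 and HNRNPM kept their calls. The estimate of TEAD1 turned to 0.0078 with scaling to total reads and ranged from -0.11 to 0.0014 with a library left out (0.0014 without knockdown replicate 2), and that of AMOTL1 ranged from -0.082 (without knockdown replicate 2) to 0.52. With no filter, 1 of the 10 genes was called higher (CYR61). Called too were 1 Hippo regulator, 1 other target, 2 SRF and actin genes and 1 paralog. Calls fell across the whole table, to 693 higher and 1113 lower of the 39306 genes then tested. The genes called higher numbered 4 with a stricter filter of 30 reads, 4 with total-read scaling and 4 by limma-voom, CTGF and CYR61 being joined by AMOTL2 and AJUBA. The called Hippo regulators numbered 8 with the stricter filter (4 higher, 4 lower), 8 with total-read scaling (5 higher, 3 lower), 8 with median-of-ratios scaling (4 higher, 4 lower) and 12 by limma-voom (7 higher, 5 lower), against 1 higher and 4 lower as reported, and 1 paralog was called with total-read scaling. The cause was not tested. With a library left out, where the lone library is assumed to vary like the others, called genes ranged from 1 to 2 of the 10, 1 to 3 regulators, 2 to 6 other targets, 0 to 6 SRF and actin genes and 0 to 1 paralogs. The AMOTL2 to AMOTL1 difference ranged from -0.35 to 0.35. Calls across the whole table numbered 5034, against 1806 with no filter and 1309 and 1696 without knockdown replicate 1 and 2. Samples with the same replicate number did not deviate together (r = 0.063 across genes), and no label pairs them. A replicate block gave 5136 calls, 2349 of them higher, over 20221 tested genes. It gave 3 of the 10 genes higher, adding AJUBA (limma adjusted p = 0.0464). The reads behind ANKRD1 limit what can be seen of it.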
